A study of Mus musculus with 3 samples.

Results

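A set of 10 fat cell genes was followed across 3 mammary tumours of the FVB-MMTV-Neu strain. They are Adipoq, Fabp4, Cd36, Lpl, Plin1, Plin4, Cidec, Adrb3, Lipe and Pnpla2, chosen by name as markers of adipocytes and as genes of lipid droplets and lipolysis, 10 of the 47480 gene symbols in each table. The strain carries a Neu (Erbb2) transgene under the MMTV promoter, which is active mainly in mammary epithelium. Per the labels, the tumours were placed orthotopically in syngeneic hosts, grew to a diameter of 5 mm and then for 7 days with no treatment, whereas the series' design text has them come from untreated MMTV-Neu mice. All 3 tumours form 1 group, with 1 RNA-seq library each and no control tissue. They are numbered 1 to 3 in the order of deposition. Their titles carry 3 different identifiers, with that of tumour 1 in another form than the others. Nothing in the labels says whether these stand for separate donor mice, so the spread between the tumours may be in part technical.

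White adipocytes store triglyceride in a large lipid droplet and release it again as fatty acids. Lipoprotein lipase, encoded by Lpl, frees fatty acids from circulating lipoproteins, CD36 takes them up and FABP4 carries them in the cytosol. Perilipins and CIDEC coat the droplet. On adrenergic stimulation through receptors such as the β3 receptor (Adrb3), adipose triglyceride lipase (Pnpla2) and hormone-sensitive lipase (Lipe) break the triglyceride down in turn. The mammary gland is embedded in a fat pad, and several of these genes are also used by other cells. Lpl, Cd36, Lipe, Pnpla2 and Plin4 are expressed in skeletal muscle, Cd36 and Fabp4 in endothelium, and Cd36, Fabp4 and Lpl in macrophages.

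Total estimated counts were 47449153, 11388769 and 17147394 in tumours 1, 2 and 3. Tumour 1 was read in lane 1 and the other tumours in lane 5, so lane and any difference of tumour 1 from the others cannot be told apart, and the comparison of tumours 2 and 3 is the one within a lane. Over all genes past the count filter, the biological coefficient of variation came to 63.5% with tumour 1 and 32.7% without it. With 1 library per tumour, these values cannot separate tumour from library, nor, with tumour 1, from lane. Levels are given as CPM, counts normalised to library totals that were scaled for composition with the TMM method. The 10 genes together held 0.0734, 0.0467 and 0.0388% of all unscaled counts in tumours 1, 2 and 3. Without Fabp4 the shares were 0.0421, 0.0365 and 0.0278%. In CPM the 10 genes summed to 503, 661 and 423, so with the TMM scaling tumour 2 and not tumour 1 had the highest sum. Luminal epithelial markers (10 genes), which define the labelled tissue, summed to 2276, 1826 and 2732 CPM, with 5 highest in tumour 1 and none at 0. Of these, the keratin genes Krt8 and Krt18 were at 407, 734 and 1038 CPM and at 461, 245 and 453 CPM, Cldn7 at 136, 278 and 382 CPM, and Elf5 at 96.6, 5.10 and 4.07 CPM. Skeletal muscle markers (16 genes, led by Ckm, Tnnt3 and Pvalb) summed to 7.10, 55232 and 25569 CPM, and in tumour 1 one of them, Ckmt2, had 0 counts. Endothelial markers (12 genes, led by Pecam1, Egfl7 and Cldn5) summed to 317, 2211 and 881 CPM. All 12 were highest in tumour 2, and 9 were lowest in tumour 1 and 3 in tumour 3. The sizes were unlike, with Pecam1 at 56.4, 775 and 231 CPM and Egfl7 at 45.6, 627 and 242 CPM. Cdh5 was at 41.2, 72.5 and 46.3 CPM and Tek at 5.87, 6.46 and 5.59 CPM, both named after their values were seen. Macrophage markers (12 genes, led by C1qa, C1qc and Lyz2) summed to 1110, 4141 and 2812 CPM. Much of this pattern lay in C1qa, at 161, 2426 and 1369 CPM, and C1qc, at 138, 717 and 518 CPM. C1qb, named after its values were seen, was at 116, 185 and 193 CPM. Lyz2 went the other way, at 478, 222 and 264 CPM. Of the 12 macrophage markers, 4 were highest and 8 lowest in tumour 1. Fibroblast and adipose progenitor markers (12 genes, led by Col1a1, Col1a2 and Col3a1, with Dlk1 the most uneven) summed to 4099, 7330 and 3882 CPM. Of these 12, 8 were lowest in tumour 1 and 3 were highest there, among them Col3a1 at 965, 566 and 402 CPM. No marker of these 3 lists was at 0.

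The fat cell genes did not move together. Adipoq and Adrb3 were far higher in tumour 1, Plin4 and Lipe were lowest there and highest in tumour 2, Plin1 was low in tumour 3, and Fabp4, Cd36 and Pnpla2 stayed within 2-fold. That last reading depends on the processing: scaled by totals alone, Fabp4 and Pnpla2 ranged over 3.05-fold and 3.49-fold, and with a trend on GC content and length removed, Cd36 and Pnpla2 ranged over 2.37-fold and 2.63-fold. By rank, 5 of the 10 genes were highest in tumour 1, 5 in tumour 2 and 0 in tumour 3. With totals alone it was 7, 3 and 0, and with the GC and length trend removed 4, 6 and 0. Totals alone also raised tumour 1 over tumour 2 for all genes, to a median log2 difference of 1.17. The shares of all genes by rank below are from the TMM scaling, so these other counts have no share beside them. The lowest level was in tumour 1 for 3 genes, in tumour 2 for 3 and in tumour 3 for 4, against 41.6, 39.6 and 18.8% of all genes past the filter. Of all 12710 genes past the count filter, 47.1% were highest in tumour 1, 35% in tumour 2 and 17.9% in tumour 3. The median SD of log2 CPM over the tumours was 0.80 for the 10 genes and 0.72 for all genes past the filter. In bulk tissue, fewer adipocytes and less of a transcript per adipocyte cannot be told apart.

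**Figure D1:**
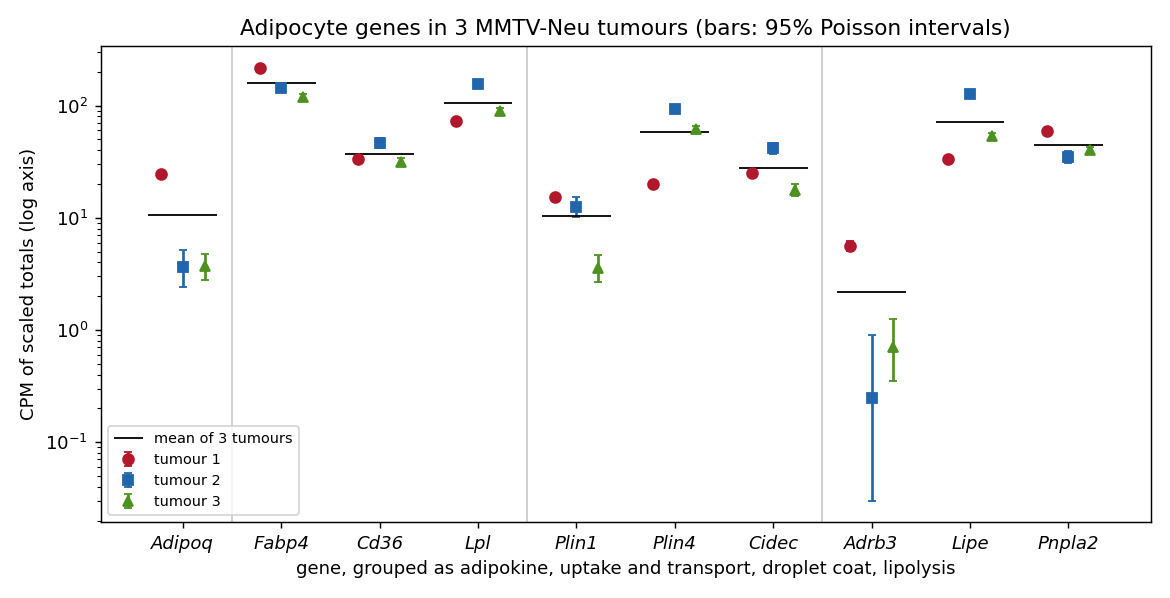
CPM (log axis) of the 10 genes in each tumour, with bars for 95% Poisson intervals of the count and black lines for the mean of the 3 tumours. Adipoq and Adrb3 lie far higher in tumour 1, at 24.3 and 5.62 CPM, while Plin4 is lowest there at 19.8 CPM.

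Adipoq (chromosome 16, 23146536 to 23158028, plus strand) encodes adiponectin, a hormone secreted almost only by adipocytes. It had 1682, 29 and 58 counts, or 24.3, 3.604 and 3.69 CPM in tumours 1, 2 and 3, with a mean of 10.5 ± 11.9 CPM (SD, n = 3). Tumour 1 stood alone, 6.75-fold above tumour 2 and 6.60-fold above tumour 3, whose Poisson intervals overlapped (2.41 to 5.18 and 2.80 to 4.77 CPM). Plin4, at the other end, is shown with it because this pair departed most in opposite directions among the genes with a window in the RefSeq promoter table. The 250 bases before the RefSeq start sites (GRCm38.p6) follow, with CCAAT boxes in capitals (ATTGG on the other strand). The Adipoq stretch is chr16:23146286-23146535, plus strand, and the Plin4 stretch is chr17:56109783-56110032, minus strand.
Adipoq: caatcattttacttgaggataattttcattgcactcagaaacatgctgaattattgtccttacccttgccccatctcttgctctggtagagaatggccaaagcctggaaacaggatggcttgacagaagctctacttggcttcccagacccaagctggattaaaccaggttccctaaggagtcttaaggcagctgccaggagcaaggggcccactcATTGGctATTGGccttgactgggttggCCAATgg
Plin4: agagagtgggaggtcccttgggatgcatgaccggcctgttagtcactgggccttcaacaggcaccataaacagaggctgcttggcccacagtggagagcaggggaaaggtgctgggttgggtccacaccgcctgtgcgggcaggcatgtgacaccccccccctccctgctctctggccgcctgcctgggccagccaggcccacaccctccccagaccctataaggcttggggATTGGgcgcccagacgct

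The Adipoq stretch held 3 CCAAT boxes, with their leftmost letters 34, 27 and 7 bases before the start, and that of Plin4 held 1, 18 bases before the start. Of the 10 genes, 7 had such a window in RefSeq, and Fabp4, Lpl and Adrb3 did not. The 9 windows of these 7 genes, each of 250 bases before and 50 after a start, were searched on both strands. CCAAT was found in windows of 3 genes (Adipoq, Cd36 and Plin4) and in 37.4% of all 32851 windows. AGGTCA, the core motif of nuclear receptors, was found in that of Cd36 and in 16.3% of all windows. In no member's window was there TATAAA (13.6% of all windows), the C/EBP palindrome TTGCGCAA (0.183%) or a pair of AGGTCA with 1 base between, the direct repeat to which PPARγ and RXR bind (0.0396%). No search overlapped another except AGGTCA with its repeat.

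The genes of fatty acid uptake and transport had ranges of 0.58 to 1.11 on the log2 scale over the tumours. Fabp4 (chromosome 3, 10204088 to 10208576), whose product carries fatty acids in the cytosol, was at 215, 144 and 120 CPM, or 160 ± 49.2 CPM (SD, n = 3). It was 1.79-fold higher in tumour 1 than in tumour 3, with a log2 difference of 0.84, and 1.202-fold higher in tumour 2 than in tumour 3. The second of these turned with totals alone as the scaling (log2 difference −0.11). Cd36 (chromosome 5, 17781690 to 17888801), the fatty acid translocase, was at 33.5, 46.9 and 31.4 CPM, or 37.2 ± 8.39 CPM, and had a range of 0.58 on the log2 scale, which became 1.25 with the GC and length trend removed. Its Poisson intervals in tumours 1 and 3 overlapped (32.1 to 34.9 and 28.7 to 34.3 CPM). Lpl (chromosome 8, 68880491 to 68907448) was at 72.6, 156 and 90.4 CPM, or 106 ± 44.2 CPM. Lpl was highest in tumour 2, by 2.16-fold over tumour 1 and 1.73-fold over tumour 3, while tumour 1 lay below tumour 3 by a log2 difference of −0.32, which turned to 0.34 with totals alone. Tumour 2 was then 1.05-fold above tumour 1.

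The 3 droplet coat genes had 3 patterns. Plin1 (chromosome 7, 79720218 to 79732903) encodes perilipin 1, the main coat protein of the adipocyte droplet and a gatekeeper of lipolysis. It had 1050, 101 and 56 counts, or 15.2, 12.6 and 3.56 CPM, with a mean of 10.4 ± 6.09 CPM. Tumours 1 and 2 had overlapping Poisson intervals (14.3 to 16.1 and 10.2 to 15.3 CPM), and tumour 3 was below them by 4.26-fold and 3.53-fold. Plin4 (chromosome 17, 56100591 to 56109803), a perilipin of small nascent droplets, was lowest where Adipoq was highest, with 19.8, 94.2 and 62.0 CPM, or 58.7 ± 37.3 CPM. It was 4.75-fold higher in tumour 2 than in tumour 1 and 1.52-fold higher than in tumour 3. Cidec (chromosome 6, 113424634 to 113435760), which promotes droplet fusion into large droplets, was at 24.9, 41.5 and 17.7 CPM, or 28.04 ± 12.2 CPM. It was highest in tumour 2, 2.35-fold above tumour 3, and its place above tumour 1 (log2 difference of tumour 1 minus tumour 2 of −0.73) turned to 0.30 with totals alone.

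Lipolysis genes ranged from Adrb3, the most uneven of the 10, to Pnpla2. Adrb3 (chromosome 8, 27225776 to 27250616), the adrenergic receptor typical of rodent adipocytes, had 389, 2 and 11 counts and was the 1 gene of the 10 that did not pass the count filter. Its levels were 5.62, 0.249 and 0.699 CPM, or 2.19 ± 2.98 CPM. The ratio of tumour 1 to tumour 2 was 22.6, with an exact 95% binomial interval of 6.22 to 187, and that to tumour 3 was 8.04 (4.45 to 16.2). Tumours 2 and 3 did not differ beyond counting error, with a ratio of tumour 3 to tumour 2 of 2.81 (0.614 to 26.1). Lipe (chromosome 7, 25379527 to 25398710), encoding hormone-sensitive lipase, was at 33.1, 127 and 53.8 CPM, or 71.1 ± 49.1 CPM. Tumour 2 stood above the others, 3.82-fold over tumour 1 and 2.35-fold over tumour 3. With totals alone these were 1.86-fold and 1.81-fold. An antisense gene, 4732471J01Rik, overlaps Lipe and had 21, 31 and 31 counts against 2289, 1018 and 846 for Lipe itself. No other member overlapped an annotated gene among those whose symbols are in the count data, the only ones searched. Pnpla2 (chromosome 7, 141455198 to 141460743), encoding the lipase that takes the first step, was at 59.6, 34.9 and 39.8 CPM, or 44.8 ± 13.1 CPM, highest in tumour 1 by 1.71-fold over tumour 2 and 1.498-fold over tumour 3. Its Poisson intervals in tumours 2 and 3 overlapped (31.0 to 39.3 and 36.7 to 43.0 CPM).

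A chi-square test asked, for each of the 12710 genes past the filter, whether its counts followed the TMM-scaled totals, with Benjamini-Hochberg adjustment. The test compares libraries and not conditions. Of the members, the 9 past the filter all passed this test, as did 94.2% of all genes tested, so the count sets no member apart. The largest adjusted p among the 9 was 9.32e-10, for Cd36 (chi-square test, Benjamini-Hochberg adjusted), and no p of this kind rests on replicates.

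By size, 4 of the 10 genes had their highest and lowest tumour at least 4-fold apart (Adipoq, Plin1, Plin4 and Adrb3), against 29.5% of all genes past the filter. Without tumour 1 the count was 0. Of all genes past the filter, 0.448% were at least 4-fold higher and 0.755% at least 4-fold lower in tumour 2 than in tumour 3. The call for Plin4 ended with totals alone (2.31-fold) and with the GC and length trend removed (3.84-fold), that for Plin1 ended with a prior count of 10 (log2 range 1.998), and Lipe joined with DESeq2 size factors (log2 range 2.06). Adipoq and Adrb3 lay at least 4-fold above both other tumours in tumour 1, as did 6.05% of all genes past the filter. No member lay that far below in tumour 1 (8.21% of all genes). The filter asks for its minimum level in all 3 tumours. Genes near 0 in a tumour, Adrb3 among them, are therefore missing from all shares of genes past it, which can understate such extremes. Of the 16 skeletal muscle markers, 5 passed it. In tumours 2 and 3, 0 members lay 4-fold above (0.252 and 0.0787% of all genes) or below (0.59 and 0.0787%) both others. At 2-fold, Lipe also lay above both others in tumour 2 (5.43% of all genes), Plin4 below both in tumour 1 (20.7%), Adrb3, on 2 counts, below both in tumour 2 (7.14%) and Plin1 below both in tumour 3 (1.35%). With totals alone the 2-fold calls for Lipe (1.86-fold and 1.81-fold over tumours 1 and 3) and for Plin4 ended.

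Between tumours 2 and 3, which share a lane, 7 of the 10 genes were higher in tumour 2, as were 48.4% of all genes past the filter. With DESeq2 size factors it was 8, since Adipoq turned to 0.034, against 52.2% of all genes. With totals alone it was 6, against 28.5% of all genes. The median log2 difference of the 10 genes was 0.59, against −0.03 for all genes past the filter. Plin1, Cidec and Lipe were at least 2-fold higher in tumour 2, with log2 differences of 1.80, 1.23 and 1.23, as were 7.39% of all genes. With totals alone this held for Plin1 (2.68-fold) but not for Cidec and Lipe (1.81-fold each). At 4-fold, 0 members were higher (0.448%) or lower (0.755%) in tumour 2. Lpl, Plin4, Cd36 and Fabp4 followed with smaller differences of 0.79, 0.60, 0.58 and 0.27. Adrb3 was lower in tumour 2 by −1.29 on 2 and 11 counts (8.81% of all genes were at least 2-fold lower), Pnpla2 by −0.19 and Adipoq by −0.03. Scaling by totals alone shifts the median of all genes for this difference by −0.37, and the 10 genes then had a median of 0.22 against −0.40 for all. Skeletal muscle, endothelial, and fibroblast and adipose progenitor markers were also higher in tumour 2, in 15 of 16, 12 of 12 and 10 of 12 genes, with median log2 differences of 0.67, 1.07 and 0.51. With totals alone, 4 of these muscle genes and 2 of these endothelial genes turned, as did Lum of the fibroblast list (from 0.04 to −0.34). The part of these markers in the values of Lipe, Cidec, Lpl and Plin4 was not tested.

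Tumour 1 minus tumour 3 gave a median log2 difference of 0.54 for the 10 genes (0.09 for all genes). At least 4-fold higher in tumour 1 were Adrb3 (2.90), Adipoq (2.70) and Plin1 (2.07), as were 7.48% of all genes. Plin4 was lower there by −1.64 (23% of all genes were at least 2-fold lower, and 9.04% at least 4-fold, which 0 members were). Tumour 1 minus tumour 2 gave a median of −0.11 for the 10 genes and 0.14 for all genes, a median near 0 over genes that lay from −2.24 (Plin4) to 4.18 (Adrb3). It changed sign with 3 other choices of scaling or filter and as a mean over genes. Adipoq and Adrb3 were at least 4-fold higher in tumour 1 than in tumour 2 (13.6% of all genes), and Plin4 was at least 4-fold lower (13.5%). At 2-fold, Plin4, Lipe and Lpl were lower in tumour 1 (27.7%), of which Plin4 alone was with totals alone. Skeletal muscle markers were at least 4-fold below both other tumours in tumour 1 for 16 of 16 genes, and their part in the low Plin4, Lipe and Lpl values there was not tested. These 3 differences share tumours and are not independent.

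**Figure D2:**
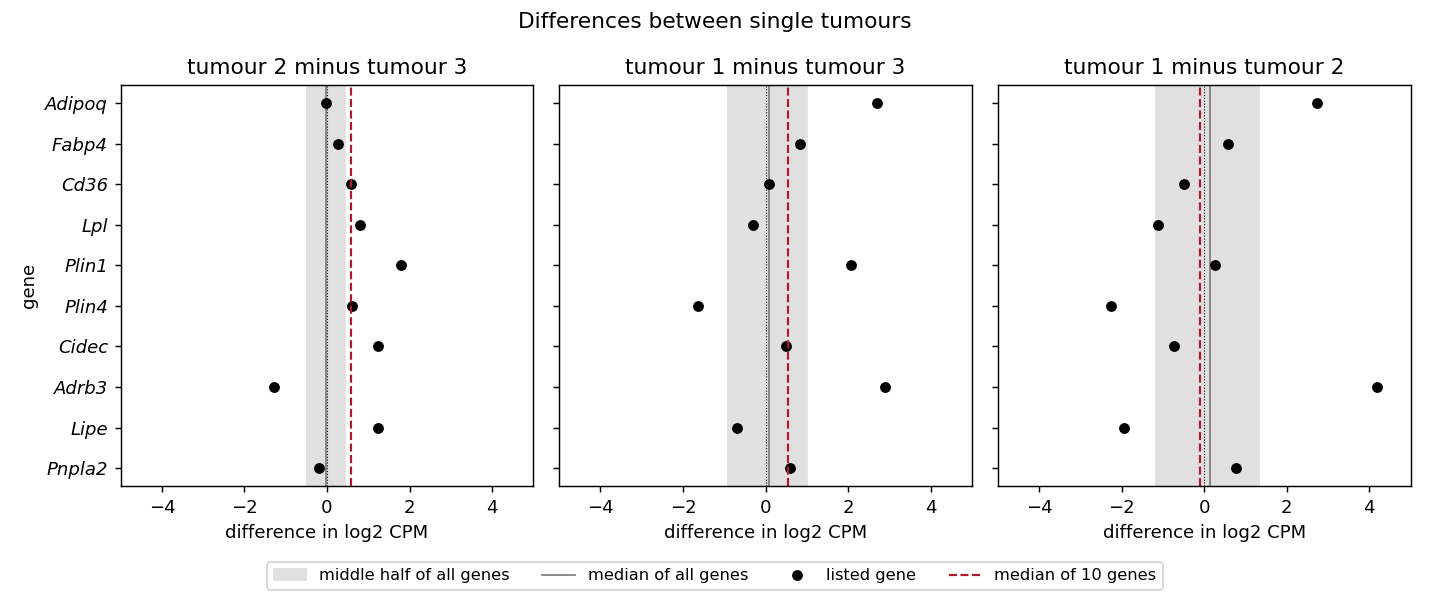
Difference in log2 CPM between single tumours for each of the 10 genes (points), with the median of the 10 genes as a dashed line and the median and the interquartile range of all genes past the filter as a line and a grey band. Between tumours 2 and 3, Plin1, Cidec, Lipe, Lpl, Plin4 and Cd36 lie to the right of the band and Adrb3 to its left, and Adipoq and Adrb3 lie far to the right in both comparisons of tumour 1.

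With a trend on GC content and log transcript length removed, which could be done for 12343 of the 12710 genes, Adipoq was still higher in tumour 1 by 2.71 and 2.97 on the log2 scale against tumours 2 and 3, and Adrb3 by 4.59 and 3.15. Plin4 was still lower by −1.94 and −1.65, and Lipe by −1.57 and −0.56. Among the small differences, Fabp4 went from 0.57 to −0.12 for tumour 1 minus tumour 2, and Cd36 from 0.09 to −0.36 for tumour 1 minus tumour 3. For tumour 1 minus tumour 2, Cidec went from −0.73 to −0.02, Cd36 from −0.48 to −1.25 and Lpl from −1.11 to −1.76. Pnpla2 went from 0.77 to 1.40 and Plin1 from 0.27 to 0.87. The trend used the longest annotated transcript of each gene. For Fabp4 that has 4231 bases against 896 for the principal one, and the trend was not refitted with principal transcripts.

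Ratios between genes within a library do not depend on the scaling. The choice of pairs was made with their values in view. The counts of Lipe over those of Pnpla2, the lipases that act in sequence, were 0.555, 3.62 and 1.35 in tumours 1, 2 and 3. Plin4 over Plin1 was 1.31, 7.505 and 17.4. Adipoq over Fabp4 was 0.113, 0.0250 and 0.0307, and Lpl over Fabp4 was 0.338, 1.08 and 0.753. Each of these ratios had its highest and lowest tumour more than 3-fold apart.

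Levels of different genes were compared as CPM per kb of the principal transcript in GENCODE M21. Fabp4 led in each tumour, at 240, 161 and 134 CPM per kb. Its longest annotated transcript has 4231 bases and its principal one 896, so that its mean was 178 CPM per kb with the principal and 37.7 with the longest transcript, the highest of the 10 either way. Next by mean came Lpl (25.9 ± 10.7), Pnpla2 (24.9 ± 7.27), Lipe (19.7 ± 13.6), Cidec (16.3 ± 7.10), Cd36 (10.96 ± 2.47), Plin4 (10.2 ± 6.48), Adipoq (8.15 ± 9.24), Plin1 (3.70 ± 2.16) and Adrb3 (0.784 ± 1.07 CPM per kb, SD, n = 3). From Lpl to Adipoq, the means of neighbours in this order differed by less than the larger SD of the pair. The order was not fixed. Adipoq ranked 3 of 10 in tumour 1, 9 in tumour 2 and 8 in tumour 3, while Lipe ranked 7, 3 and 4 and Plin4 ranked 9, 6 and 5. Adrb3 was last in each tumour.

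**Figure D3:**
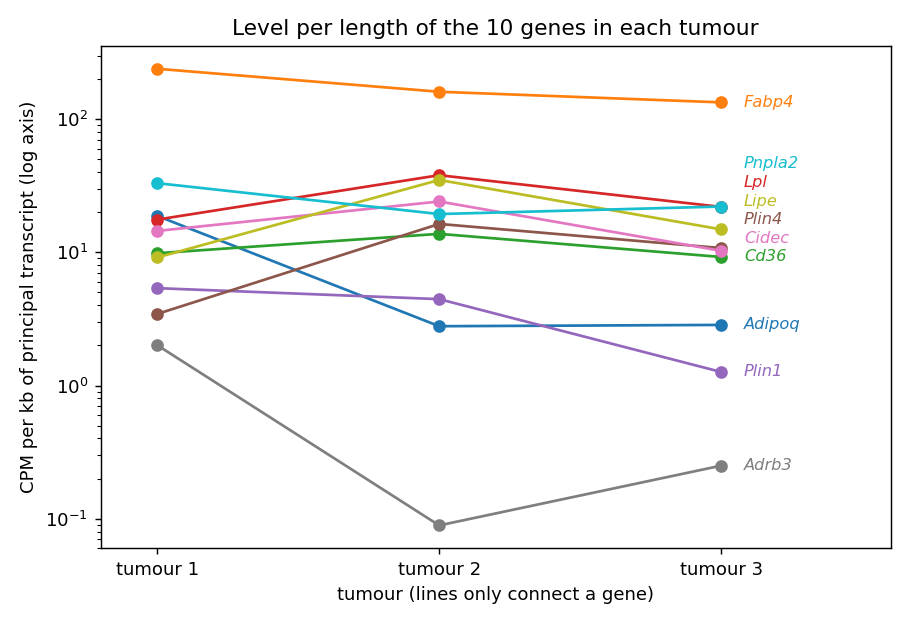
CPM per kb of the principal transcript (log axis) of each of the 10 genes in each tumour, with lines that only connect the points of a gene. Fabp4 is highest and Adrb3 lowest in each tumour, and Adipoq falls from rank 3 in tumour 1 to rank 9 in tumour 2.

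Other genes of the adipocyte program were taken from 6 fixed lists. For each list, counts are given of genes that lay 2-fold or more above, or below, each of the other tumours, with a count of 0 taken as 3 counts, to be read against all genes past the filter, of which 22.1% lay above and 20.7% below in tumour 1, 5.43% above and 7.14% below in tumour 2, and 0.865% above and 1.35% below in tumour 3. Of the 10 adipocyte transcription factors, 2 lay above in tumour 1 (Pparg and Srebf1), 2 below in tumour 1 (Ebf1 and Cebpb), 1 above and 1 below in tumour 2 (Ebf1 and Cebpd) and 1 below in tumour 3 (Klf15). Pparg, the master regulator of fat cell differentiation, was at 2.78, 0.994 and 0.826 CPM on 192, 8 and 13 counts. Its partner Rxra was at 73.8, 38.03 and 35.3 CPM, the lipogenic factor gene Srebf1 at 245, 95.2 and 94.7 CPM, Cebpb at 196, 435 and 525 CPM, and Ebf1, with the widest range, at 6.98, 76.8 and 23.7 CPM. Ebf1 is also expressed by fibroblasts, pericytes and B cells. Pparg, Cebpd and Klf15 were named after their values were seen.

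Of 10 genes, of secreted adipocyte proteins, adiponectin receptors and γ-synuclein (Sncg), 0 lay above and 1 below in tumour 1. In tumour 2, 3 lay above (Apln, Nrg4 and Sncg, named after their values were seen). Cfd, which encodes adipsin and is abundant in fat, was at 135, 85.8 and 83.8 CPM, highest in tumour 1 as Fabp4 was. Resistin (Retn) was at 13.9, 13.4 and 8.64 CPM and leptin (Lep) at 2.79, 2.11 and 1.53 CPM, while Adipoq differed 6.75-fold between tumours 1 and 2. Both were named after their values were seen. The adiponectin receptor gene Adipor1 was at 127, 199 and 146 CPM. Angptl4, an inhibitor of lipoprotein lipase, was at 29.3, 149 and 110 CPM.

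Of 12 droplet and caveola genes, 2 lay above in tumour 1 (Cidea and Cav2), 4 below in tumour 1 (Plin2, Fitm1, Bscl2 and Ptrf), 2 above in tumour 2 (Ptrf and Plin5) and 1 below in tumour 2 (Plin3). Cidea, a droplet protein close to CIDEC, had 236, 0 and 2 counts and was at least 9.15-fold higher in tumour 1 than in tumour 2, taking 3 counts as the most that a count of 0 allows in that library, and the exact 95% binomial interval of that ratio starts at 7.38. Between tumours 2 and 3 it did not differ beyond counting error. Cideb had 4, 0 and 0 counts. Plin2, the perilipin of most cell types, was at 97.8, 391 and 288 CPM, low in tumour 1 as Plin4 was. Bscl2, encoding seipin, was at 47.9, 361 and 225 CPM, and Ptrf, a caveola coat gene abundant in fat, muscle and endothelium, at 84.9, 1817 and 691 CPM. Fitm1, a droplet gene of muscle, had the widest range, at 0.419, 35.7 and 27.8 CPM, in the order of the skeletal muscle markers, with tumours 2 and 3 turned under totals alone. Their part in it was not tested. Cav2, Plin5 and Plin3 were named after their values were seen.

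Of 16 lipolysis regulators and partner enzymes, 5 lay above in tumour 1 (Adrb1, Lipa, Abhd6, G0s2 and Ces1d) and 3 below (Prkaca, Aqp7 and Npr1). In the same list, 2 lay above in tumour 2 (Aqp7 and Npr1) and 2 below in tumour 3 (Mgll and Adora1), and 13 of the 15 past the filter passed the chi-square test. The β1 receptor gene Adrb1 had 507, 3 and 3 counts, highest in tumour 1 as Adrb3 was, with a ratio of tumour 1 to tumour 2 of 19.7 (6.69 to 95.6). G0s2, an inhibitor of adipose triglyceride lipase, was at 15.7, 3.48 and 1.97 CPM, and Abhd5, the coactivator of the same enzyme, at 57.6, 29.6 and 41.4 CPM. Mgll, which completes the breakdown, was at 62.0, 88.7 and 26.8 CPM. Prkaca, the catalytic subunit of protein kinase A, was at 42.1, 199 and 127 CPM, and the glycerol channel gene Aqp7 at 2.21, 14.3 and 5.28 CPM, both lowest in tumour 1 and highest in tumour 2 as Lipe was. Names beyond Prkaca, Mgll, Abhd5 and Adrb1 were picked with their values in view.

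Of 16 genes of fatty acid uptake, triglyceride synthesis or other adipocyte functions, 4 lay above in tumour 1 (Acsl1, Gpam, Thrsp and Mrap). Another 4 lay below there (Slc27a4, Gpihbp1, Dgat1 and Slc2a4). In tumour 2, 1 lay above and 1 below (Slc27a4 and Fabp5), and 4 lay below in tumour 3 (Gpam, Dgat2, Mrap and Thrsp). Mrap had 129, 7 and 2 counts, with a ratio of tumour 1 to tumour 2 of 2.14 (1.01 to 5.44). Thrsp, a lipogenic gene of fat and mammary epithelium, was at 54.1, 9.07 and 4.13 CPM, highest in tumour 1 as Adipoq was, and Fabp5, a fatty acid carrier also of epithelium, at 101, 21.5 and 53.1 CPM. Dgat1, which makes triglyceride, was at 21.6, 191 and 135 CPM, and the transporter gene Slc27a4 at 57.8, 406 and 175 CPM. Gpihbp1, which holds lipoprotein lipase on capillary endothelium, was at 11.2, 99.8 and 52.1 CPM, in the order of Lpl and of the endothelial markers. Slc2a4, the insulin-responsive glucose transporter of fat and muscle, was at 14.99, 87.7 and 47.3 CPM. Names beyond Slc27a4, Dgat1, Fabp5 and Thrsp were picked with their values in view.

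Of 12 thermogenic genes or markers of fat cell type, 2 lay above in tumour 1 (Slc36a2 and Dio2). Another 4 lay below there (Cox8b, Cox7a1, P2rx5 and Kcnk3). In tumour 2, 3 lay above (Kcnk3, Slc7a10 and Zic1) and 2 below (Ppargc1a and Prdm16, the latter on 2 counts). Ucp1, the uncoupling protein of brown fat, had 6, 0 and 25 counts and so was at 1.59 CPM in tumour 3, the 1 gene of this list that lay above both others there. Zic1 had 0, 5 and 1 counts, and Elovl3 had 25, 0 and 1. Cox8b and Cox7a1, respiratory chain subunits of muscle and brown fat, were at 2.14, 77.4 and 84.9 CPM and at 1.94, 59.8 and 44.5 CPM, in the direction of the skeletal muscle markers. Kcnk3 was at 2.14, 36.3 and 5.53 CPM. Slc36a2, Dio2, P2rx5, Slc7a10, Ppargc1a and Prdm16 were named after their values were seen.

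**Figure D4:**
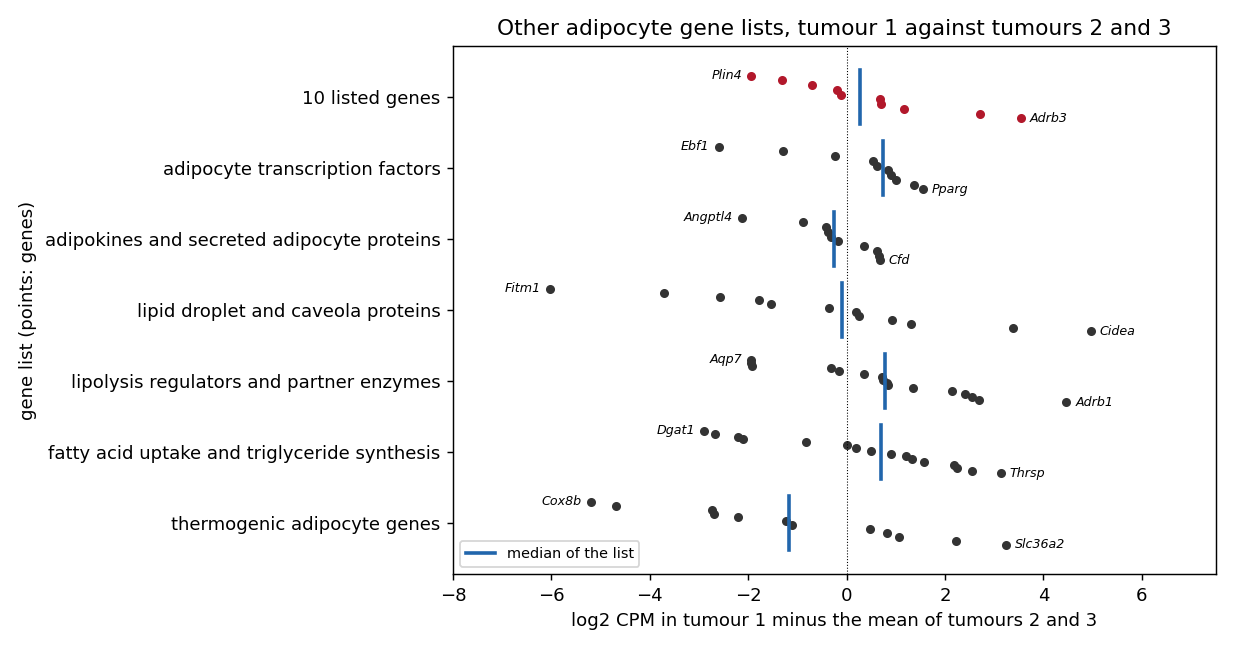
Log2 CPM in tumour 1 minus the mean of tumours 2 and 3 for the 10 genes (red) and for each gene of 6 other adipocyte lists, with the median of each list as a blue line and the genes at both ends named. Each list holds genes on both sides of 0, from Fitm1 at −6.03 to Cidea at 4.97.

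The 5 genes whose centred log2 CPM over the 3 tumours lay nearest to the mean profile of the 10 genes were Snph, Lingo1, Ube2o, Svil and Emc1, at distances of 0.00985 to 0.0257 log2 units, out of 11795 candidates. With 3 tumours, so close a match is easily found, and the mean profile (0.30, 0.10 and −0.40) averages genes of opposite patterns. The members themselves lay 0.26 (Fabp4) to 2.82 (Adrb3) from it.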

How the data were processed

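RNA was extracted from 3 untreated tumours and sequenced as paired-end reads of 50 bp, per the labels' protocols. Each file that the authors deposited holds estimated counts by gene symbol (the NumReads column of Salmon, per the file headers). STAR, SAMtools and Picard with build mm10 are named in the submitters' processing notes. Their versions, the annotation and strandedness were not stated in the labels or headers. Lanes were read from the file headers.

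Estimated counts were rounded. Genes passed edgeR 4.0.16 (R 4.3.3) filterByExpr (minimum count 10, minimum total 15), leaving 12710. With all tumours as 1 group, the filter needs its minimum level in each library, so genes near 0 in any tumour were left out. TMM factors were 1.48, 0.722 and 0.936, and log2 CPM used a prior count of 2. A chi-square test (scipy 1.17.1) was tested on simulated data. Poisson and binomial intervals cover counting error only. In the shallowest library, tumour 2, 3 counts equal 0.373 CPM.

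The 10 members and the lists were chosen with earlier results of these data known. Named were all members, and of each list the 3 genes highest in mean CPM, the one with the widest range and genes with a 0 (those of the cell type lists mostly without values). Other names are marked in the text, except genes listed only as behind a count. Positions and lengths came from GENCODE M21 (GRCm38, the assembly of mm10), where 45213 symbols matched, and promoter windows from RefSeq (GRCm38.p6). Alternatives were DESeq2 1.42.0 size factors, other scalings, filters, prior counts and thresholds, each tumour left out and a GC and length trend (longest transcripts) removed.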

Additional observations from a re-analysis of the deposited data

How the results depend on the processing

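The median over the 10 genes of tumour 1 minus tumour 2 (−0.11 on the log2 scale) changed sign with totals alone (0.93, where the median of all genes shifts by 1.03), upper-quartile factors (0.015), no filter (0.020) and as a mean over genes (0.20), and the cause was not tested. Those of tumour 2 minus tumour 3 (0.22 to 0.66) and of tumour 1 minus tumour 3 (0.48 to 1.198) kept their sign in each alternative that gave a value. The count of genes at least 4-fold between tumours (4) was 7 at 2-fold and 1 at 8-fold, and the count of genes apart in a tumour (2) was 5 at 2-fold and 0 at 8-fold, by the construction of the threshold. Leaving out one tumour each gave 0 to 3 genes at least 4-fold between the remaining tumours, with 0 without tumour 1, and 7 to 9 genes past counting noise. Shares of all genes at these thresholds and without a tumour are not given. These counts therefore cannot be read as a result about the 10 genes. The median level of the 10 genes (41.0 CPM) was 30.9 CPM without tumour 1 and up to 44.9 CPM without another. With 2 tumours left, a gene apart in a tumour is not defined, and differences that need the tumour left out have no value. No paired analysis was possible because there is 1 group. Depth limits Adrb3, Adrb1, Cidea, Pparg, Klf15, Mrap, Slc36a2, Elovl3, Prdm16, Ucp1 and Zic1, which rest on few counts in tumour 2 or 3.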

Other observations

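Genes nearest in pattern to single members were looked up after the values were seen, as a description over 3 tumours with no test. Nearest to Adipoq among the genes past the filter were Orc3, a subunit of the origin recognition complex, at 16.0, 2.36 and 2.42 CPM in tumours 1, 2 and 3, the carbonic anhydrase gene Car2 at 7.98, 1.12 and 1.14 CPM, and the ephrin gene Efnb2 at 24.2, 3.48 and 3.56 CPM. Nearest to Plin4 were the transcription factor gene Osr1 at 13.3, 63.5 and 41.8 CPM, the deacetylase gene Hdac7 at 40.6, 193 and 127 CPM, and Prr3 at 22.3, 107 and 70.0 CPM.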
